A study of Mus musculus with 2 samples.

Results

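The heat shock proteins, J proteins and chaperonins are the cell's general folding machinery, and their RNA was described in 2 libraries of aged mouse cortex. The genes were chosen by symbol alone: protein-coding genes of GENCODE M21 whose symbol begins with Hsp or Dnaj, or with Cct or Bag followed by a digit, leaving out Hspg2, which encodes a basement membrane proteoglycan. No measured value entered that choice, which gave 88 genes of 22015 nuclear protein-coding genes. The libraries are replicates 1 and 2 of a single group, left cerebral cortex of male B6CASTF1/J animals at 18 to 20 months of age. B6CASTF1/J is a first-generation hybrid, so alleles of both parent strains were counted against 1 reference genome. Each library was made from 300 ng of total RNA with ERCC spike-ins, and the labels name no treatment and no second group. The labels name the same donor for both libraries but a different biosample for each, and whether separate animals were used is not stated, so the spread between the libraries may be technical.

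Chaperones bind unfolded or partly folded proteins and release them in cycles driven by ATP. J proteins deliver clients to Hsp70 and stimulate its ATP hydrolysis, exchange factors of the Hsp110 and BAG groups then release ADP, and Hsp90 acts later on folding intermediates such as kinases and steroid receptors. Chaperonins enclose whole proteins in a chamber, TRiC in the cytosol and Hspd1 with its lid Hspe1 in mitochondria. In neurons this machinery also serves the synapse, where it uncoats clathrin vesicles and keeps vesicle proteins folded. Heat shock factor 1 induces part of the family under stress, while other members are made at all times.

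The depth over annotated genes was 22827996 expected counts for replicate 1 and 29897545 for replicate 2. Markers of neurons were detected in 6 of 6 cases, led by Snap25, and those of astrocytes, oligodendrocytes, microglia, endothelium and mural cells in 25 of 25. The 8 markers of striatum, a neighbouring forebrain region, were all higher in replicate 2, with a summed level of 177 TPM in replicate 1 and 375 TPM in replicate 2 and a median log2 ratio of 1.11. Of 6 markers of ependyma and choroid plexus 3 were detected, with a summed level of 14.3 and 21.6 TPM. Markers were higher in replicate 2 in 5 of 6 cases for neurons, 4 of 5 for oligodendrocytes and 3 of 5 for microglia. For endothelium 2 of 5 were higher, for astrocytes 1 of 5 and for mural cells 0 of 5. Of all nuclear protein-coding genes compared, 24.3% were higher. Median ratios were 0.20 for oligodendrocytes and microglia, 0.12 for mural cells, 0.075 for neurons, 0.057 for endothelium and 0.042 for astrocytes, beside 0.053 over all genes. Both libraries are bulk tissue, so fewer cells of a type and less RNA per cell cannot be told apart.

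Of the 88 genes, 75 were detected at a TPM (a level per transcript length, with an equal total in both libraries) of 1 or more in both libraries, or 85.2%, beside 58.5% of all nuclear protein-coding genes. They held 1.24% ± 0.01 (SD, n = 2) of the TPM of all nuclear protein-coding genes. The output was concentrated in a few genes. Hspa8 alone held 19.5% of the summed level in replicate 1 and 19.6% in replicate 2, and the 3 most abundant genes, Hspa8, Hsp90ab1 and Hsp90aa1, held 39.8% and 40.1%. The 20 most abundant held 75.0% and 74.7%.

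**Figure D1:**
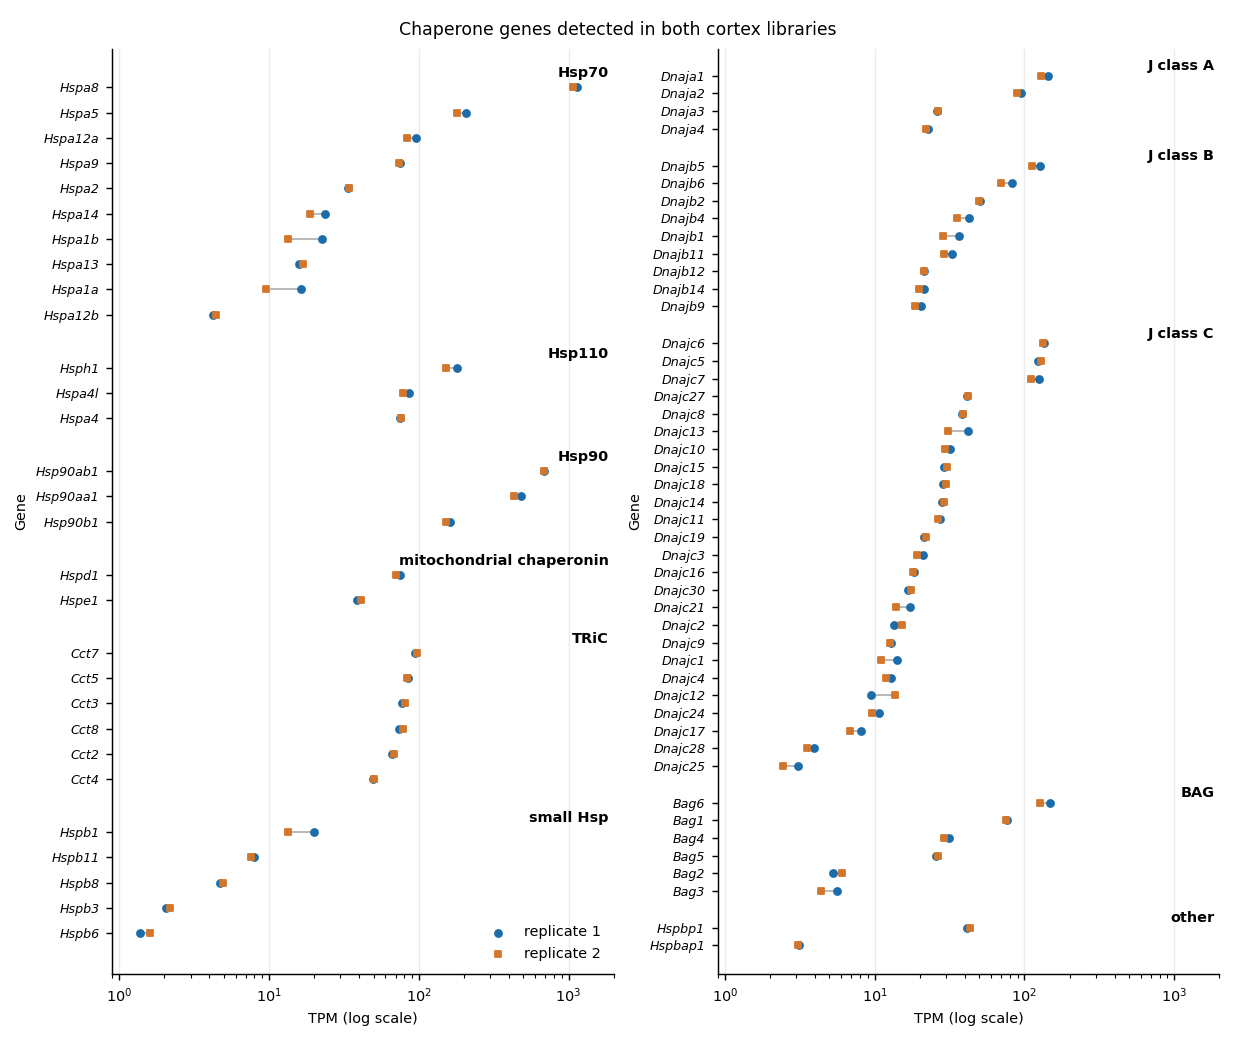
TPM (log scale) of the 75 genes detected in both libraries, grouped by role and ordered by mean level, with replicate 1 as circles and replicate 2 as squares. Hspa8, Hsp90ab1 and Hsp90aa1 stand above all other genes shown, and Hspa1a and Hspa1b show a wide gap between the libraries.

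The Hsp70 group was carried by its constitutive cytosolic member. Hspa8, which encodes Hsc70, the partner of auxilin in clathrin uncoating, had 1132 TPM in replicate 1 and 1068 TPM in replicate 2 and ranked 4 among all nuclear protein-coding genes by mean level. Its share of reads is uncertain, since 84.4% of the 50-base stretches of its leading transcript also occur in transcripts of other genes, mostly the processed pseudogene Gm15459. Hspa5, the Hsp70 of the endoplasmic reticulum known as BiP, had 207 and 180 TPM. Hspa12a, a distant and brain-rich relative, had 96.5 and 83.9 TPM. Hspa9, the mitochondrial Hsp70 known as mortalin, had 75.5 and 74.2 TPM. Hspa8 stood 5.70-fold above Hspa5 and 32.2-fold above Hspa2, a member best known from the testis, which had 34.0 and 34.3 TPM. These orders held in each library, where the deposited intervals of the levels did not overlap.

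The remaining Hsp70 genes were lower. Hspa14, a ribosome-associated member, had 23.8 and 18.9 TPM and is uncertain, since it overlaps the readthrough gene Gm45902 on the same strand. Hspa13, a microsomal member, had 15.95 and 16.93 TPM. Hspa12b, known from endothelial cells, had 4.25 and 4.41 TPM, and Hspa12a stood 20.8-fold above it. The stress-inducible pair Hspa1a and Hspa1b, which encode near-identical Hsp70 proteins, had 16.3 and 9.53 TPM and 22.5 and 13.5 TPM. Their summed level of 38.8 TPM in replicate 1 and 23.0 TPM in replicate 2 was far under that of Hspa8, which was 29.2-fold and 46.4-fold higher.

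Exchange factors that reset Hsp70 were abundant. Hsph1, the Hsp110 also known as Hsp105, had 180 and 152 TPM and stood 2.18-fold above Hspa4. Hspa4 had 75.1 and 76.1 TPM and its relative Hspa4l 85.5 and 78.7 TPM, and this pair was not separated in both libraries, with a mean log2 difference of -0.12 ± 0.10 (SD, n = 2). Among the BAG genes, Bag6, which guards tail-anchored and misplaced membrane proteins, led with 148 and 126 TPM. Bag1, which links Hsp70 to the proteasome, had 77.1 and 74.9 TPM, or 15.3-fold the level of Bag3, which directs clients to autophagy and had 5.63 and 4.39 TPM. Bag4 had 31.4 and 29.0 TPM, Bag5 25.8 and 26.6 TPM and Bag2, an inhibitor of the ubiquitin ligase CHIP, 5.27 and 6.04 TPM. Hspbp1, an exchange factor outside the BAG group, had 41.7 and 43.1 TPM, and Hspbap1, named for its binding of a small heat shock protein, 3.13 and 3.10 TPM. Hyou1, the Hsp110 of the endoplasmic reticulum and no part of the symbol rule, had 58.1 and 58.8 TPM.

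All Hsp90 genes were high. Hsp90ab1, the constitutive cytosolic form, had 691 and 687 TPM, and Hsp90aa1, the inducible form, had 483 and 433 TPM. The gene table put Hsp90ab1 1.43-fold above Hsp90aa1 in replicate 1 and 1.59-fold in replicate 2, but the second transcript table gave a mean ratio of 0.98. Hsp90aa1 is uncertain, since 65.6% of the 50-base stretches of its leading transcript are shared with other genes, mostly the transcribed pseudogene Gm12346. Hsp90b1, the form of the endoplasmic reticulum, had 162 and 151 TPM and stood 1.23-fold below Hspa5, and 1.44-fold below it in the second transcript table. Of 21 Hsp90 co-chaperones, 20 were detected, with a summed level of 1001 TPM ± 40.9 (SD, n = 2) beside 1304 TPM ± 45.2 for the 3 Hsp90 genes. The highest were Stip1, the adaptor that passes clients from Hsp70 to Hsp90, with 96.2 and 91.0 TPM, and Ahsa1, the activator of its ATPase, with 78.1 and 75.6 TPM.

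J proteins, 45 genes of which 38 were detected, had a summed level of 1508 TPM ± 68.1 (SD, n = 2), close to the 1566 TPM ± 87.5 of the Hsp70 group. No J gene approached Hspa8: the highest, Dnaja1, had 144 and 130 TPM. Dnaja1, a farnesylated cytosolic cochaperone, stood 1.48-fold above its relative Dnaja2 with 94.6 and 89.4 TPM, and the mitochondrial Dnaja3 had 26.2 and 26.5 TPM. Class B was led by Dnajb5 with 127 and 113 TPM, then Dnajb6, a suppressor of polyglutamine aggregation, with 83.2 and 69.9 TPM, and Dnajb2, a neuronal J protein, with 50.6 and 50.1 TPM. Dnajb1, the classical Hsp40, was lower at 36.8 and 28.7 TPM, so that Dnajb5 stood 3.69-fold above it. Dnajb4 had 42.9 and 35.5 TPM. Dnaja1 and Dnajb6 are uncertain, since 30.6% and 41.9% of the 50-base stretches of their leading transcripts are shared with other genes.

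Class C was headed by synaptic genes. Dnajc6, which encodes auxilin, the neuronal cofactor that brings Hsc70 to clathrin coats, had 135 and 132 TPM. Its widely expressed relative Gak had 45.00 and 42.38 TPM, and Dnajc6 stood 3.06-fold above it. Dnajc5, which encodes the vesicle chaperone cysteine string protein, had 123 and 128 TPM, and its difference from Dnajc6 was not called. Dnajc7, a tetratricopeptide protein that binds Hsp70 and Hsp90, had 124 and 111 TPM. It overlaps Cnp, an oligodendrocyte gene on the other strand with 47.7 and 56.3 TPM, and no source used here says whether counting used strand. The other 22 detected class C genes ran from 2.78 TPM for Dnajc25 to 41.6 TPM for Dnajc27 in mean level. Dnajc25 is uncertain, since it overlaps Gm20503 on the same strand, which had 3.55 and 0.71 TPM.

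The subunits of TRiC, the cytosolic chaperonin that folds actin and tubulin, were close to each other. Among its 8 subunits the highest level was 1.92-fold ± 0.02 (SD, n = 2) the lowest. Cct7 had 94.6 and 97.6 TPM, Cct5 85.4 and 83.0 TPM, Cct3 77.0 and 81.4 TPM and Cct8 73.7 and 78.6 TPM. Cct2 had 66.3 and 68.0 TPM and Cct4, the lowest, 49.8 and 50.5 TPM. The remaining subunits fall outside the symbol rule: Tcp1 had 90.9 and 95.1 TPM, and Cct6a, which GENCODE M21 types as a processed transcript rather than protein-coding, had 70.0 and 65.0 TPM. Its relative Cct6b, known from the testis, had 0.19 and 0.09 TPM. Prefoldin, the complex that hands nascent actin and tubulin to TRiC, was less even: its 6 subunits spread 14.02-fold ± 0.84 (SD, n = 2), from Pfdn4 with 14.3 and 14.1 TPM to Pfdn5 with 192 and 206 TPM. The second transcript table also put Pfdn4 lowest but Pfdn2 highest, with a 9.69-fold spread. For TRiC it put Cct4 lowest but Tcp1 highest, with a 2.14-fold spread.

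**Figure D2:**
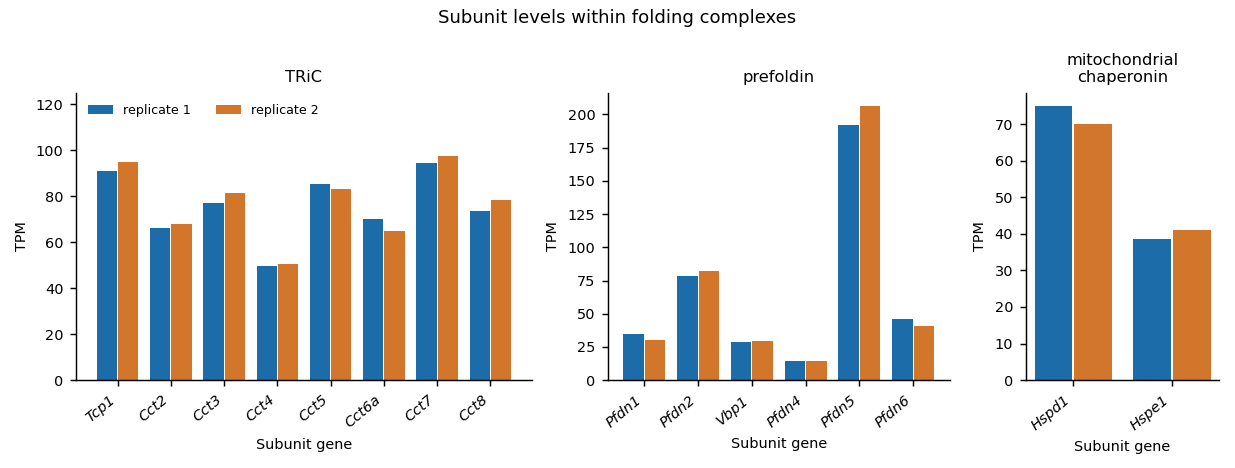
TPM of each subunit gene of TRiC, prefoldin and the mitochondrial chaperonin, with 1 bar per library and axes from 0. TRiC subunits lie between 49.8 and 97.6 TPM, whereas Pfdn5 stands well above the other prefoldin subunits in the gene table shown. Pfdn5 was not the highest in the second transcript table.

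In the mitochondrion, Hspd1, the chaperonin Hsp60, had 74.9 and 70.0 TPM and its lid Hspe1, or Hsp10, 38.6 and 41.0 TPM. Hspd1 was 1.82-fold above Hspe1 in the gene table and 1.34-fold in the second transcript table. Both are uncertain, with 44.8% and 36.1% of their stretches shared. The 9 genes listed as mitochondrial summed to 313 TPM ± 1.62 (SD, n = 2) and the 10 listed for the endoplasmic reticulum to 501 TPM ± 35.6. These lists may not hold every member found there. Hspa9 stood 2.51-fold above Trap1, the mitochondrial Hsp90.

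Small heat shock proteins hold unfolded proteins without ATP. The group was formed by symbol alone, Hspb followed by a number, so a member such as Hspb11 need not act in this way. It was the scarcest of the symbol groups, with a summed level of 34.1 TPM ± 3.95 (SD, n = 2) over 8 genes. Hspb1, or Hsp25, had 19.9 and 13.5 TPM, Hspb11 7.92 and 7.65 TPM, and Hspb8, a partner of Bag3, 4.70 and 4.98 TPM. Hspb3 had 2.07 and 2.20 TPM and Hspb6 1.39 and 1.60 TPM. Cryab, the alpha B crystallin, which the symbol rule leaves out, was 4.30-fold above Hspb1 with 71.5 and 69.3 TPM. It overlaps Hspb2 by 1030 bases on the other strand. Clu, the secreted chaperone clusterin, had 343 and 355 TPM.

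The 13 genes that were not detected were Hspb2, Dnajb3, Hspa1l, Dnajb13, Cct6b, Dnajc22, Hspb7, Cct8l1, Hspb9, Dnajc5b, Dnajb7, Dnajb8 and Dnajc5g. Hspb2, with 0.90 and 1.14 TPM, lay just under the limit, and Hspb6 just above it. Dnajb7, Dnajb8 and Dnajc5g were listed at 0 in both libraries, and counts of 0 allow up to 3 counts in each, as counting error only.

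Over 23 pairs of related genes, 21 differed in the same direction in both libraries by intervals that did not overlap. The second transcript table has no such intervals. Its mean difference had the same direction for 20 of the 21, all but Hsp90ab1 and Hsp90aa1, and 14 passed 1.5-fold there in both libraries. Levels of 49 genes chosen by the naming rule were compared between the tables as shares of all nuclear protein-coding TPM. Of these shares, 47 agreed within 1.5-fold. The exceptions were Cct3, with a share 1.62-fold lower in the second table, and Dnajc8, with one 1.51-fold higher in it. The TPM values themselves compare otherwise. Cct3 had 78.7 and 83.5 TPM in the second table, beside 77.0 and 81.4 in the gene table. Cct2 had 144 and 153 TPM there, beside 66.3 and 68.0.

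Transcript use was stable between the libraries but depended on the table. Among 63 genes with several annotated transcripts and a mean level of at least 5 TPM, 61 had the same leading transcript in both libraries (96.8%, beside 89.2% of all nuclear protein-coding genes treated alike). Leading transcripts made up 74.1% of their gene's TPM by the median, beside 62.0% over all such genes. The leading transcript differed between the tables in both libraries for 14 genes (22.2%), beside 17.8% of all genes, and this touched the most abundant member. The first table gave Hspa8-202 a share of 45.8% ± 2.2 (SD, n = 2) of the gene, and the second gave it 0.06% and named Hspa8-201 with 76.2% ± 2.4. Both are typed protein-coding. The next most abundant of the 14 were Hsph1, Dnaja1, Dnajc6 and Dnajc5.

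Transcripts without a protein-coding type made up 10.01% of the level by the median over these genes and 13.7% over all genes. In the first table they led 4 genes, which are named after their values were seen: Cct7, Dnajc15, Dnajc19 and Dnajc24. In the second table they still led Cct7 on the mean and Dnajc15, but Dnajc19 and Dnajc24 had a protein-coding leading transcript. Their share of Dnajc19 was 51.2% ± 1.4 (SD, n = 2) in the first table and 0% in the second, and that of Dnajc24 55.5% ± 12.2 and 22.5% ± 5.5. Cct7-202, typed as a target of nonsense-mediated decay, held 38.6% ± 1.7 (SD, n = 2) of the level of Cct7 in the first table and 45.9% ± 1.8 in the second. Dnaja2-202, a retained-intron transcript, held 43.8% ± 3.5 of Dnaja2 in the first table and 61.2% ± 3.0 in the second. The share of Dnajc7 without a coding type was 53.7% ± 7.5 in the first table and 42.0% ± 4.4 in the second.

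**Figure D3:**
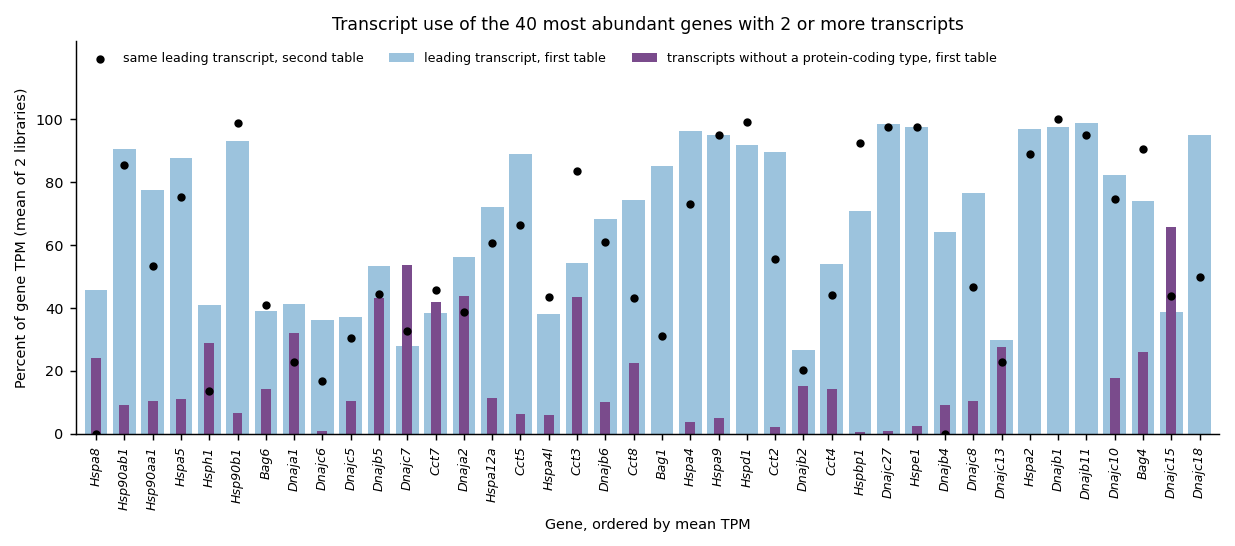
Share of the gene's TPM (mean of 2 libraries) held by the leading transcript in the first table (wide bars), by transcripts without a protein-coding type in that table (narrow bars), and by the same leading transcript in the second table (points), for the 40 most abundant genes with several transcripts. Hspa8 has a point near 0 under a bar of 45.8%, while Hsp90ab1 and Hsp90b1 have bar and point close together.

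The libraries were then compared gene by gene as a description of 2 libraries, with no test. The measure was the log2 ratio of replicate 2 over replicate 1 of the expected counts after TMM scaling, with an exact 95% interval for counting error. Of 77 genes whose mean count reached 10, 32 had an interval above 0 (41.6%), beside 24.3% of 14444 nuclear protein-coding genes, and 9 had one below 0 (11.7%), beside 12.7%. The median ratio was 0.096, beside 0.053 over all. Most of these differences were small and depended on scaling. Relative to the median protein-coding gene, 20 were higher (26.0%), beside 15.7% of all genes, and 14 lower (18.2%), beside 18.1%. Scaled to the ERCC spike-ins, which moved the median of all genes to -0.073, 1 was higher (1.30%), beside 6.73%, and 25 lower (32.5%), beside 29.4%.

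**Figure D4:**
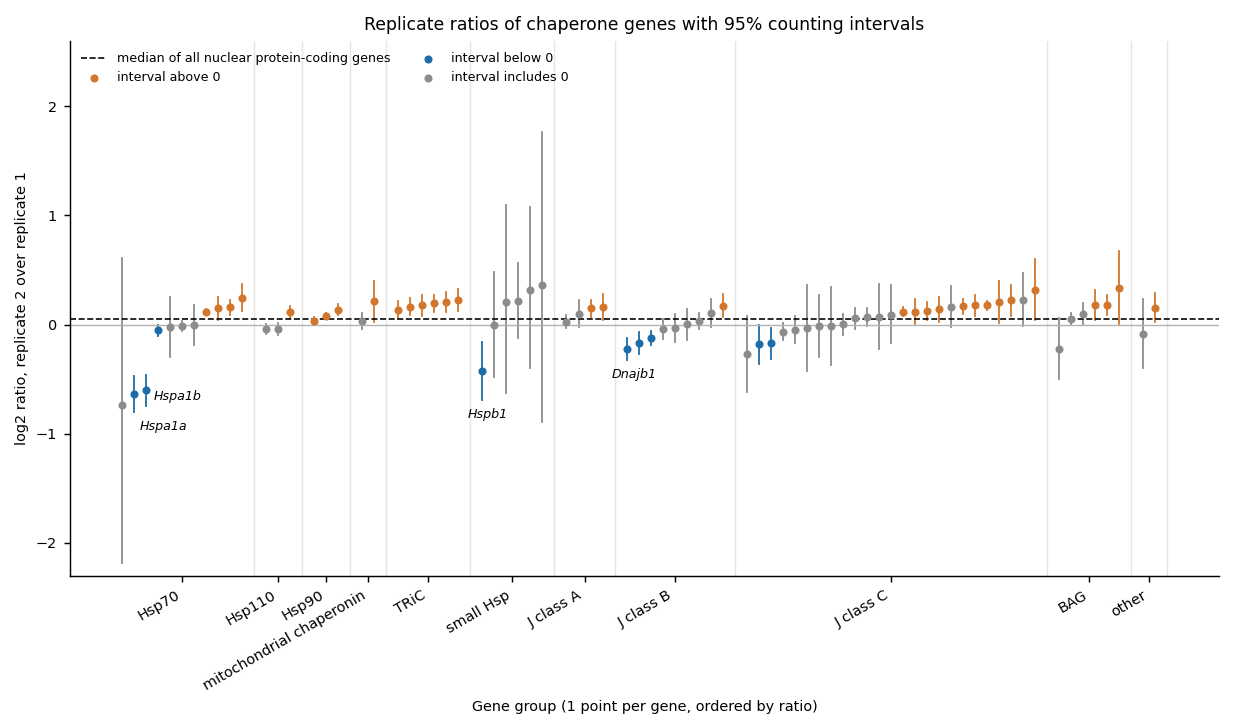
Log2 ratio of replicate 2 over replicate 1 (points) with 95% counting intervals (lines) for the 77 genes whose mean count reached 10, grouped by role, after TMM scaling. The dashed line is the median of all nuclear protein-coding genes, 0.053, and Hspa1a, Hspa1b, Hspb1 and Dnajb1 lie below it with intervals under 0.

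Of the genes called higher or lower, 8 kept that call in every scaling and in both tables. Dnajc5 was higher in replicate 2, by 0.18 on the log2 scale, beside 6.39% of all genes with such a call. The other 7 were lower: Hspa1a, Hspa1b, Hspb1, Dnajb1, Dnajb4, Dnajb5 and Dnajc1. They are 9.09% of the genes compared, near the 9.7% of all nuclear protein-coding genes that were lower under the same terms, so their number does not set the family apart.

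The sizes differed among those 7. Hspa1a had 694 counts in replicate 1 and 566 in replicate 2 in spite of the larger second library, a log2 ratio of -0.64 with an interval from -0.80 to -0.48. Hspa1b had 904 and 755 counts and a ratio of -0.60, from -0.74 to -0.46. Reads of these genes cannot be divided with certainty, since 60.3% and 62.3% of their 50-base stretches are shared, so their counts were also summed. The sum was 1598 and 1321 counts, 1.53-fold lower in replicate 2, with a ratio of -0.62 from -0.72 to -0.51, and the second table gave -0.58. Hspb1, with 238 and 225 counts, had a ratio of -0.42 from -0.69 to -0.16 and shares 58.9% of its stretches with the pseudogene Hsp25-ps1. Dnajb1, with 1582 and 1718 counts, had -0.22 from -0.32 to -0.13. Dnajb4, Dnajc1 and Dnajb5 had -0.17, -0.17 and -0.13. The striatal markers moved in the other direction, and their part in these ratios was not tested.

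The TRiC genes stayed together. All 6 that could be compared were higher in replicate 2 after TMM scaling, beside 24.3% of all genes, from 0.14 for Cct5 to 0.22 for Cct4, and Tcp1 and Cct6a were higher by 0.21 and 0.11. The same 6 were higher relative to the median gene and in the second table, but each of their intervals included 0 with spike-in scaling. Of the 8 subunits only Tcp1 stayed higher with spike-ins. The median over the 8 subunits was 0.19 after TMM scaling and 0.060 with spike-ins. After TMM scaling the marker medians were 1.11 for striatum, 0.47 for ependyma and choroid plexus, and 0.20 for oligodendrocytes and microglia. They were 0.12 for mural cells, 0.075 for neurons, 0.057 for endothelium and 0.042 for astrocytes. The part of any of these tissues or cells in the TRiC values was not tested. Among the genes with an interval above 0 and a mean count that reached 100, the largest ratios were 0.34 for Bag2, 0.32 for Dnajc12, a partner of tyrosine and tryptophan hydroxylases, and 0.24 for Hspa13. Dnajc8 had 0.22 and Hspe1 0.21. With spike-in scaling the intervals of these 5 also included 0.

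The targets of the heat shock factor were split after TMM scaling. Of 20 genes listed as classical targets of heat shock factor 1, 5 were higher (25%) and 5 lower (25%) after TMM scaling, beside 24.3% and 12.7% of all genes, with a median ratio of 0.0093. This split rests on the scaling: relative to the median gene 3 were higher and 7 lower, and with spike-ins 0 were higher and 16 lower (80%), beside 29.4% of all genes lower. The lower ones after TMM scaling were Hspa1a, Hspa1b, Hspb1, Dnajb1 and Chordc1, an Hsp90 co-chaperone with a ratio of -0.14. The most abundant listed genes were not among them: Hspa8 had 0.12, Hsp90ab1 0.083 and Hsp90aa1 0.037. With spike-in scaling all 3 ratios were below 0, but the interval of Hspa8 included 0. After TMM scaling the intervals of Hsph1, Dnaja1, Hspd1 and Bag3 included 0. Hsf1, which encodes the factor, had 38.1 and 27.8 TPM and a ratio of -0.25 from -0.38 to -0.11. Hsbp1, which encodes a protein that binds the factor, had 129 and 140 TPM and a ratio of 0.24. Of the 21 Hsp90 co-chaperones, 9 were higher after TMM scaling (42.9%) and 3 lower (14.3%), and with spike-ins 0 were higher and 7 lower. The 3 lower after TMM scaling were Cdc37l1 with -0.29, Fkbp5, a glucocorticoid-induced immunophilin, with -0.24, and Chordc1. These names were picked after their values were seen.

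Promoters of these genes were searched for the heat shock element, the site of heat shock factors, in the RefSeq promoter table (GRCm38.p6), which gives 250 bases before and 50 after each start. The table matched 72 of the 88 genes with 92 windows. Hspa8, Hsp90ab1 and Hsp90aa1, the most abundant genes, were among those without a window, so their promoters were not searched. A core of 2 units, GAANNTTC or TTCNNGAA, was found on either strand in 27.8% of the 72 genes and 17.0% of all genes of the table. A run of 3 alternating units, GAANNTTCNNGAA or TTCNNGAANNTTC, whose matches contain those of 2 units, was found in 4 genes (5.56%), Hspd1, Hspe1, Hsph1 and Dnajb6, and in 0.66% of all genes. By windows these shares were 6.52% and 0.60%. Hspd1 and Hspe1 hold the same stretch, and the windows of Hsph1 overlap, as do those of Dnajb6. Both shares therefore count some stretches more than once. A match describes letters, not binding.

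The stretches that hold the 3-unit runs are shown first, 30 bases each and 5′ to 3′ on the gene's strand, with the bases of all 2-unit and 3-unit matches in capitals. The Hspe1 stretch is chr1:55088053-55088082 on the plus strand, and its run begins 89 bases before the start. The same stretch also lies in a promoter window of Hspd1, which is head to head with Hspe1 and overlaps it by 112 bases. It falls in an exon of the transcript Hspd1-202. The Hsph1 stretch is chr5:149636279-149636308 on the minus strand, in the first exon of several transcripts. The Dnajb6 stretch is chr5:29735844-29735873 on the plus strand, in an exon of Dnajb6-201. It also falls in an exon of Gm5129-201, from a gene on the other strand.
Hspe1: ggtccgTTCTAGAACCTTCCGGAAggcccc
Hsph1: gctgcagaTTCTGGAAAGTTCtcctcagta
Dnajb6: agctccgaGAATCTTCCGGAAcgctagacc

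The genes with the lowest replicate ratios among those whose mean count reached 100 are shown next, as the 250 bases before the start, where the annotation has no exon. Hspa1a spans chr17:34969190-34972156 and Hspa1b chr17:34956436-34959238, both on the minus strand and 9951 bases apart, and each is a single exon. Their upstream stretches, chr17:34972157-34972406 and chr17:34959239-34959488, are the same at 247 of 250 positions and hold a 2-unit match at the same place, 104 bases before the start. Hspb1, on the plus strand of chromosome 5, has 2 matches in chr5:135887669-135887918. None of the 3 holds a run of 3 units by these letters in this window.
Hspa1a: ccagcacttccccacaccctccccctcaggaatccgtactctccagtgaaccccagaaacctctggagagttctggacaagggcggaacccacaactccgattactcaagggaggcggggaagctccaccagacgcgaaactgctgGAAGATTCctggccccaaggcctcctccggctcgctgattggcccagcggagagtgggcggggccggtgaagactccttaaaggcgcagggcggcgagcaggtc
Hspa1b: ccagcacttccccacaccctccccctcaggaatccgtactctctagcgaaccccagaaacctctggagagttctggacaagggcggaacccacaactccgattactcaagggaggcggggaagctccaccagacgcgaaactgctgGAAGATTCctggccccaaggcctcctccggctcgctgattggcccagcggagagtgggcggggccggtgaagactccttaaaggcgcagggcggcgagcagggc
Hspb1: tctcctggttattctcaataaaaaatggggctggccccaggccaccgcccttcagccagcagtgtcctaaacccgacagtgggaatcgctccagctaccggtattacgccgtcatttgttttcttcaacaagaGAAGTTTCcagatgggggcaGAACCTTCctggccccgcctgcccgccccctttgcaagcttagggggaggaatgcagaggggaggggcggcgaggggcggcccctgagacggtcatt

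The replicate ratios can be read beside these sequences. Hspe1, Hspd1, Hsph1 and Dnajb6, with a 3-unit run, had ratios of 0.21, 0.032, -0.040 and -0.042. Hspa1a, Hspa1b and Hspb1, with only 2-unit matches in their windows, had the lowest ratios of the 72 family members whose mean count reached 100. Among the genes with a 2-unit match that could be compared, 5 of 18 were higher and 4 lower, and among those with none 16 of 45 were higher and 5 lower, beside 24.3% higher and 12.7% lower over all genes.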

How the data were processed

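Gene levels and a first set of transcript levels have the RSEM column layout, a second set of transcript levels that of kallisto, per the file headers. The build was mm10 with GENCODE M21, per the deposited file lists. No source used here gives the aligner, tool versions or use of strand. The deposited expected counts are estimates of reads per gene. The deposited TPM values and the bounds of their intervals, whose level is not given, come from the same tables, as does the deposited percent each transcript makes up of its gene. Some TPM values lie outside their own bounds. Hspa8 in replicate 1, for example, had 1132 TPM with bounds of 1052 and 1123. Pair calls in the gene table compare these bounds, not the TPM values. Reads with CAST alleles were placed on the reference, with an effect that was not measured.

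Expected counts were rounded and scaled with TMM factors (edgeR 4.0.16, R 4.3.3). Log2 ratios used counts plus 0.5, with exact Clopper-Pearson 95% intervals that cover counting error only (reads may be copies of 1 molecule). The interval calculation was tested on simulated data. A pair was called where the deposited TPM intervals did not overlap, in 1 direction in both libraries, and in the second table, which has no intervals, where it passed 1.5-fold in both. Sharing of sequence was measured as the percent of 50-base stretches of the leading transcript found in transcripts of other genes. There is 1 group, so no p-value is given. The genes named are the 20 most abundant, the detected members of every group other than J proteins, the 3 highest of each J class, the 10 largest ratios among genes whose mean count reached 100 and whose interval excluded 0, the paired genes, those with differing leading transcripts (5 by name), those with a 3-unit element, and the 2 highest of each companion list. The genes and lists were chosen with earlier results of these data known. Alternatives were DESeq2 1.42.0 size factors, total counts, spike-ins, deposited TPM, the second table, other limits, and each replicate alone. Centring on the median gene, the summed Hspa1a and Hspa1b counts, the calls kept in every scaling and the gene lists in other scalings were added after seeing the data.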

Additional observations from a re-analysis of the deposited data

Results flagged for a closer look

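Signal outside the 88 genes was seen in features that carry the same kinds of names without a protein-coding type. Cct6a, a TRiC subunit typed as a processed transcript, had 1795 counts in replicate 1 and 2464 in replicate 2. The processed pseudogene Hsp25-ps1 had 21.05 and 18.48 counts, and Hspd1-ps3 had 10.33 and 20.60. All 3 lie above the 3 counts that a count of 0 allows, and the pseudogenes share 50-base stretches with Hspb1 and Hspd1.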

How the results depend on the processing

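The number of detected genes, the pair calls and the calls under DESeq2 size factors kept their direction, with counts within 1.5 times. The counts of higher genes were 20 with total counts, 1 with spike-ins and 20 centred on the median gene (added after seeing the data), against 32, and those of lower genes 25 with spike-ins and 14 centred, against 9. The median ratio was -0.030 with spike-ins and -0.042 with deposited TPM. The family share was 1.22% in the second table and 1.07% of counts, the median leading share 61.2% in the second table and 72.0% at 20 TPM or more, and the spreads of TRiC, prefoldin and the mitochondrial chaperonin 2.14-fold, 9.69-fold and 1.35-fold in the second table. Among values called before or after the change, signs turned for Bag6 (-0.077), Dnaja1 (-0.10), Dnajc6 (-0.0088), Hsp90aa1 (-0.089), Hsp90ab1 (-0.043), Hspa4 (-0.011), Hspa8 (-0.0092) and Hspd1 (-0.094) with spike-ins, for Hsp90aa1 (-0.0088) with total counts, and for Bag4 (-0.11), Cct5 (-0.041), Dnaja2 (-0.082), Dnajb2 (-0.014), Dnajc6 (-0.033), Hsp90aa1 (-0.16), Hsp90ab1 (-0.0069), Hsp90b1 (-0.10), Hspa8 (-0.084) and Hspa9 (-0.025) with deposited TPM. A further 16 sign changes, over 12 genes, were of values whose intervals included 0 (deposited TPM has none), and the cause was not tested. Replicate 1 alone gave 75 detected genes and 23 called pairs, and replicate 2 alone 76 and 21. No paired analysis was possible because there is 1 group. The depth leaves genes under about 100 counts with wide intervals, such as Hspb6.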
